A study of Drosophila melanogaster with 4 samples.

Results

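Broad peaks that lay close together on the large autosome arms of Drosophila melanogaster embryos formed 156 clusters of 5 or more. A cluster was a chain of peaks on 2L, 2R, 3L or 3R in which each gap, from the end of a peak to the start of the next, was at most 5000 bp. The clustered peaks described here are the 900 peaks of these chains that were themselves under 1500 bp wide, out of 5171 peaks in the whole list (17.4%). Peaks with midpoints near the centromeres were left out, at 20 Mb or more on 2L, below 2 Mb on 2R and 3R, and at 22 Mb or more on 3L. The parts of the arms that remained held 3758 peaks, of which the 900 made up 23.9%. Another 74 peaks of 1500 bp or more stood in 59 of the same clusters, so that the 156 clusters held 974 peaks in all. Position and width chose the clustered peaks, and the score comes from the same peak call. All values are therefore given as a description and none was tested.

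Broad, the product of the gene br (Broad-Complex), is a family of transcription factors with a shared BTB domain, through which such proteins contact each other, joined to different pairs of zinc fingers that bind DNA. It is best known as an early responder to the moulting hormone ecdysone. In ChIP-seq, an antibody pulls down a protein together with the DNA fixed to it and that DNA is sequenced, and a peak is a stretch where the reads exceed the local or genome-wide background. Groups of neighbouring peaks are common for transcription factors of the fly embryo, whose genes can carry several enhancers, the DNA elements that switch a gene on in a given tissue. No annotation of the build of these peaks was used here, so no gene or enhancer is assigned to a cluster.

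The series held 2 ChIP libraries, made with a rabbit polyclonal antibody raised against the core region common to the Broad isoforms, and 2 Input libraries of genomic DNA without immunoprecipitation. All came from embryos that were staged 0 to 8 h in the sample labels, of unknown sex, of strain y cn bw sp, and cross-linked in 1.8% formaldehyde for 15 min; the protocol text also describes a later collection window. The genotype carried y[1] and oc[R3.2] on the first chromosome, cn[1], bw[1], sp[1], the gustatory receptor alleles Gr22b[1] and Gr22d[1] and also CG33964[R4.2] on the second, and Rh6[1], GstD5[1], LysC[1], MstProx[1] and lab[R4.2] on the third. The authors deposited 1 list of peaks for all 4 libraries, with a position and a score each, in coordinates of FlyBase release 5. Values of single libraries were not used here, so no replicate error can be given and the depth is unknown. The score was read as −log10 of the p-value of the peak, which rises with enrichment and with depth.

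Most clusters were small. Of the 156, 72 held 5 peaks, 33 held 6, 26 held 7, 11 held 8 and 8 held 9. There were 3 clusters of 10 peaks, 1 of 14 and 2 of 15. A cluster spanned a median of 8.99 kb (quartiles 6.74 and 11.7 kb) and ranged from 2.57 to 28.4 kb. Its peaks covered a median of 39.9% of that span (quartiles 31.2 and 52.2%), and over all clusters 610 of 1523 kb lay within peaks.

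Joining showed how many separate sites a cluster held. Of the 818 gaps between neighbouring peaks within clusters, 549 (67.1%) were under 1 kb and 137 (16.7%) under 100 bp, with a median of 416.5 bp and a smallest gap of 44 bp. The median follows the limit on gaps, at 262 bp with a limit of 2000 bp and 648 bp with 10000 bp. When peaks less than 1 kb apart were joined, 15 of the 156 clusters (9.62%, 95% Wilson interval 5.91 to 15.3%) still held 5 or more sites. A further 56 became 3 sites, 49 became 2, 14 became 4, and 22 clusters became 1 continuous stretch. At 500 bp, 27 clusters (17.3%) kept 5 or more sites. The 974 peaks thus made 425 sites, of which 261 were built from several peaks and took up 810 peaks (83.2%). Such a site of several peaks was a median of 2023 bp wide from its first to its last base. The Wilson intervals here and below cover the counting of clusters or peaks only. They are too narrow, because neighbouring peaks are not independent.

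Gaps under 1 kb made up a like share in smaller chains, while longer gaps were spread differently. In the 1222 gaps of chains of 2 to 4 peaks on the same parts of the arms, 68.9% were under 1 kb and the median was 365.5 bp. Above 1 kb, clusters had 68 gaps of 1 to 2 kb, 90 of 2 to 3 kb, 69 of 3 to 4 kb and 42 of 4 to 5 kb, so that gaps of 2 to 3 kb outnumbered those of 1 to 2 kb. Chains of 2 to 4 had 118, 93, 83 and 86 in the same classes.

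**Figure D1:**
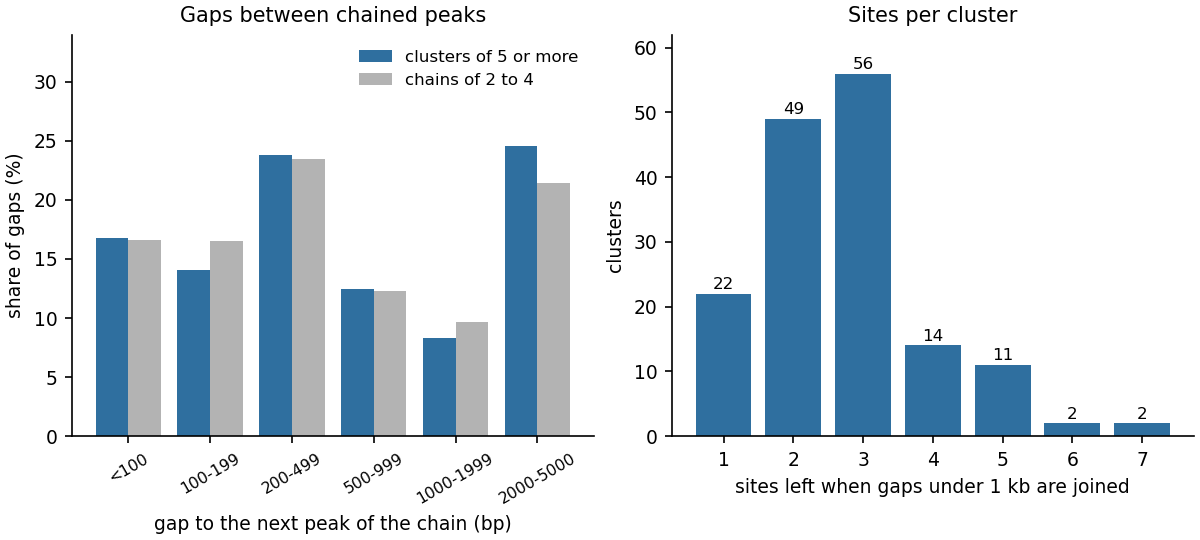
Left, share of gaps (%) by gap length (bp) between neighbouring peaks, in clusters of 5 or more (818 gaps, blue) and in chains of 2 to 4 peaks (1222 gaps, grey). Right, number of clusters by the sites left when gaps under 1 kb were joined; most clusters had 2 or 3 sites and 15 had 5 or more.

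The clusters of 10 or more peaks held both strong and weak peaks, in no common order. The first, 3R:2899605-2920555, held 15 peaks in 21.0 kb and 5 sites at 1 kb. In its first site, 4 peaks between 2899605 and 2902051 scored 9.06, 12.93, 14.00 and 15.51. The strongest peak followed at 2905167 to 2906227 with a score of 41.70, after a peak that ended 58 bp before it and scored 13.19. Downstream lay a peak of 1728 bp at 2912638 to 2914365 with a score of 20.56 and another strong peak at 2915350 to 2916203 with 30.19. All the other peaks of the cluster scored under 20.

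The cluster 2L:11987639-12011612 also held 15 peaks, in 24.0 kb and 7 sites, and none was 1500 bp wide or more. It opened with a nearly continuous stretch of 5 peaks, separated by 54 to 98 bp, that scored 22.64, 9.33, 16.48, 11.08 and 12.04. Its strongest peak, 12006356 to 12006999 with a score of 31.08, stood 3644 bp from the peak before it and 3578 bp from the peak after it. The other scores above 20 were those of its first peak and of its last, 12011023 to 12011612 with 23.61.

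At 3R:7034946-7063358, the longest cluster by span, 14 peaks in 28.4 kb made 6 sites. Here 2 wide peaks carried the highest scores, 48.84 at 7047617 to 7049191 and 39.36 at 7034946 to 7037844. Between them, from 7040232 to 7043065, stood 6 narrow peaks of 209 to 284 bp with scores of 8.86 to 14.68. The remaining 6 peaks, all beyond 7052033, scored 14.21 to 26.31.

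The other 3 held 10 peaks each. The cluster 2R:10039523-10063350 was the most open of them, with 7 sites in 23.8 kb. Its first peak, 10039523 to 10040933, scored 61.72, the highest of all 900 clustered peaks, and its last, a wide peak of 2188 bp, scored 36.82; the 8 peaks in between scored 7.27 to 20.69. At 2R:8055805-8071865 the strongest peak was 8062400 to 8062941, with 32.13 at a width of 542 bp, while the wide peak at 8066855 to 8068457 scored 21.35. In 3R:8248442-8260121, 7 peaks from 8254921 onwards were joined by gaps of 57 to 506 bp and scored 8.48 to 17.57, and the strongest peak, 8251148 to 8252267 with 47.56, stood apart before them.

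**Figure D2:**
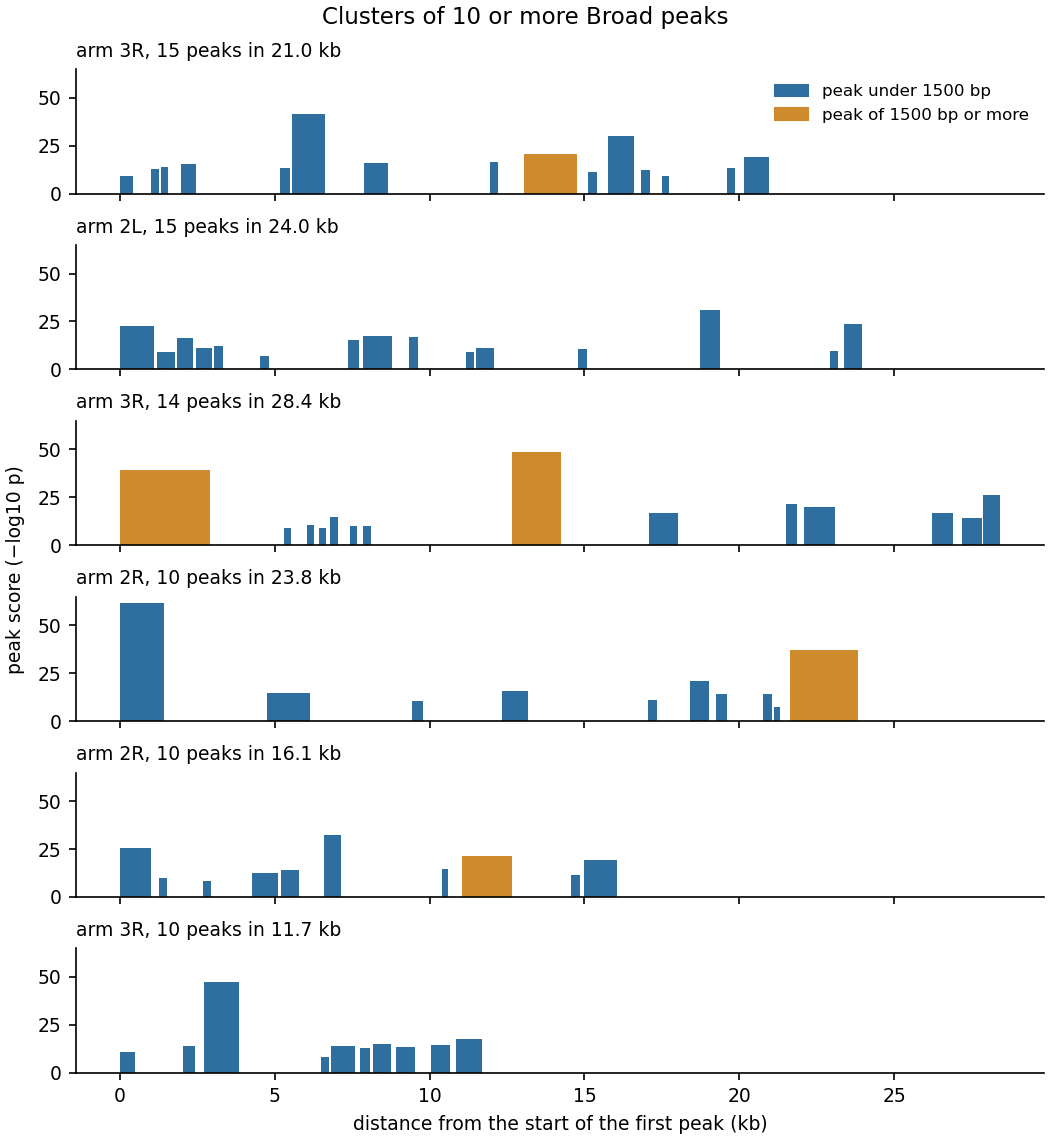
Peaks of the 6 clusters with 10 or more peaks, drawn to scale by distance from the start of the first peak (kb); bar width is peak width and bar height is the score (−log10 p). Clustered peaks under 1500 bp are blue and wider peaks orange; in 5 of the 6 clusters the highest bar is blue, with scores from 31.08 to 61.72, and in 1 (3R, 14 peaks) it is orange and reaches 48.84.

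The most compact clusters were single stretches. At 3R:11489776-11492341, 5 peaks in 2.57 kb (1.95 peaks per kb, against a median of 0.642 over the clusters) scored 15.73, 30.25, 10.86, 8.35 and 9.27. At 3R:14919140-14922445, 6 peaks in 3.31 kb scored 15.96, 22.87, 7.61, 12.73, 12.16 and 10.68, with gaps of 44 to 412 bp. At 2R:4553349-4558198, 7 peaks stood in 4.85 kb; the last, 4557483 to 4558198, scored 23.50, and the other 6 scored 7.49 to 12.19. Each of these clusters became 1 site when gaps under 1 kb were joined. On 3L the cluster with most peaks (9) and the highest summed score was 3L:16572849-16588777, in 15.9 kb, whose strongest peak was its last, with 30.46.

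Clustered peaks, like peaks in chains of 2 to 4, covered a narrower range of scores than isolated peaks of the same width class. The 900 clustered peaks had a median score of 12.90 (quartiles 10.17 and 17.16, range 6.40 to 61.72). The 1830 peaks under 1500 bp in chains of 2 to 4 had a median of 13.10 (quartiles 10.39 and 17.86, range 6.03 to 62.09). The 697 isolated peaks, with no other peak within 5000 bp on either side, had 14.20 (quartiles 10.68 and 19.67, range 6.70 to 122.08). The clustered median lay 1.31 below the isolated one (interval from -2.17 to -0.20, from the outer bounds of the 95% order-statistic intervals of the 2 medians). Such an interval, here and below, treats peaks of 1 list as independent, which they are not, and is no test. The interval reached past 0 without arm 2L (-2.10 to 0.04) and without arm 3R (-2.36 to 0.14). Scores of at least 30 belonged to 36 clustered peaks (4.00%), 91 peaks in chains of 2 to 4 (4.97%) and 55 isolated peaks (7.89%). Widths followed the same order, with medians of 388 bp in clusters, 415 bp in chains of 2 to 4 and 478 bp for isolated peaks. Width and score come from the same call, and across the clustered peaks they had a Spearman rho of 0.707, against 0.767 across isolated peaks (900 and 697 peaks of 1 list, which are not independent).

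Joined at 1 kb, with wide peaks included and the highest score standing for the site, the 425 sites of the clusters had a median score of 17.53, against 15.08 for the 789 isolated peaks of any width. Most of these sites hold several peaks, whose highest score exceeds that of a single peak by construction. Sites of several peaks had a median of 19.91, and sites of a single peak, the like unit, had 14.70.

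**Figure D3:**
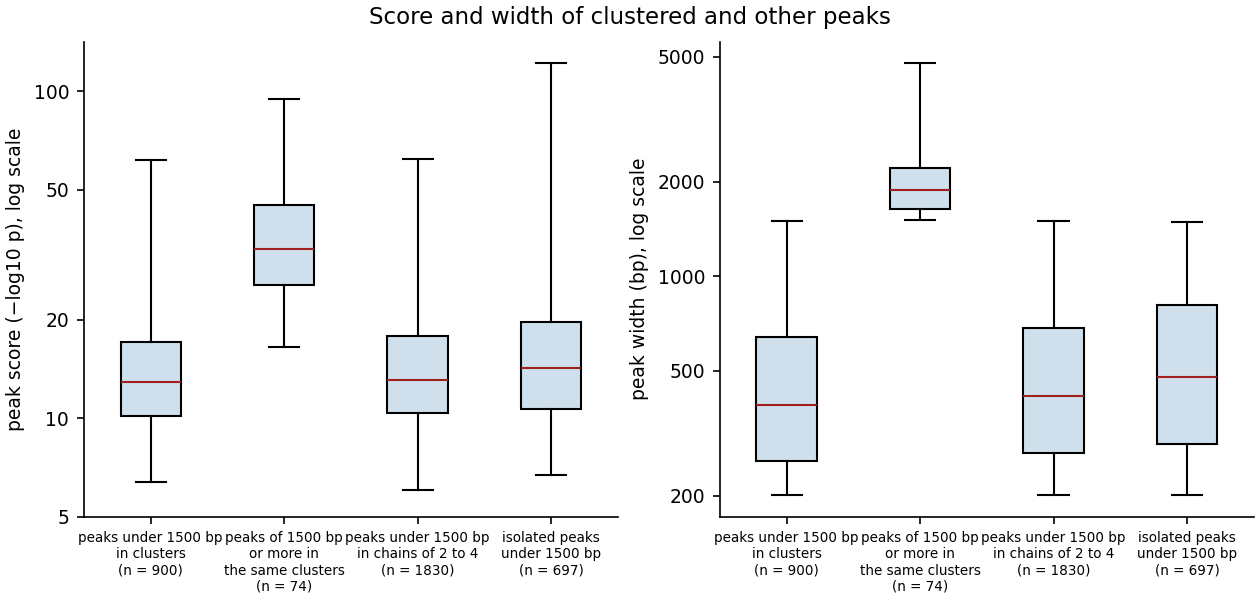
Score (−log10 p, left) and width (bp, right) on log axes for peaks under 1500 bp in clusters, wider peaks of the same clusters, peaks under 1500 bp in chains of 2 to 4, and isolated peaks under 1500 bp; boxes show quartiles, red lines medians and whiskers the lowest and highest value. Clustered peaks have the lowest median score (12.90) and width (388 bp) of the 4 groups, and wide peaks of the same clusters have the highest (32.92 and 1885 bp).

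Where a cluster held a wide peak, that peak mostly had its highest score. The 74 peaks of 1500 bp or more had a median score of 32.92 (quartiles 25.48 and 44.88), and in 44 of the 59 clusters with such a peak it was also the strongest; in the other 15 the strongest was a narrower peak. The highest was 3R:14738475-14742725, of 4251 bp, with 94.62. It opened a cluster of 9 peaks, 3R:14738475-14754974, in which the median score over all 9 was 9.30. Next came 2L:18313574-18316610, of 3037 bp, with 86.33. It stood in a cluster of 8 peaks, 2L:18310691-18321289, that was 82.0% covered by peaks and formed 1 site at 1 kb.

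Among the 900 clustered peaks themselves, after the peak with 61.72 already described, the highest scores were 59.12 at 2R:18693207-18694531, 50.07 at 3R:5334937-5336135 and 50.03 at 2L:12433147-12434613. These were followed by the 47.56 on 3R above, 46.00 at 2R:3416675-3417295, 44.35 at 2R:19737296-19738744 and the 41.70 on 3R above. The first 10 were completed by 39.79 at 3L:9847197-9848513 and 39.36 at 2R:7513025-7514194. Of these 10, 5 came from 2R and 3 from 3R, with 1 each from 2L and 3L. The peak at 2R:3416675-3417295, at 621 bp, was the only one of the 10 narrower than 1000 bp. At the other end, 203 clustered peaks (22.6%) scored under 10, against 403 peaks in chains of 2 to 4 (22.0%) and 135 isolated peaks (19.4%).

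Most clusters, 121 of 156 (77.6%), held a peak that scored under 10, and in the other 35 all peaks scored 10 or more. The strongest peak of a cluster had a median score of 27.30 (quartiles 20.66 and 35.90), the weakest 8.58 (quartiles 7.76 and 9.74). A strongest peak of 30 or more was found in 68 clusters (43.6%) and of 50 or more in 15 (9.62%). In 5 clusters no peak reached 15. The lowest of these was 2R:12902596-12908267, whose strongest peak scored 13.21.

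By their scores, peaks of the same cluster were about as different as peaks of different clusters. Clusters accounted for 16.4% of the variance of log2 score among the 900 peaks, close to the 17.2% that a division of 900 unrelated values into 156 groups takes up by its number of groups alone, and the intraclass correlation was -0.01. With wide peaks included it was -0.01 as well. Chains of 2 to 4 peaks had a like value, -0.02, so this was not particular to clusters. Across 700 pairs of neighbouring clustered peaks the Spearman rho of their scores was 0.05, and it was 0.06 for 472 pairs less than 1 kb apart and 0.04 for 228 pairs farther apart. These are descriptions across peaks of 1 list, and leaving out wide peaks limits the range of scores.

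The strongest peak stood at an end of the cluster more often than ends make up its peaks in clusters of 5, and about as often in larger ones. It was the first or the last peak in 62 of 156 clusters (39.7%, 95% Wilson interval 32.4 to 47.6%), while first and last peaks were on average 33.8% of the peaks of a cluster. The 284 clustered peaks at an end had a median score of 13.69 and a median width of 433 bp, against 12.55 and 356 bp for the 616 inner peaks. The share differed with cluster size: it was 51.4% (37 of 72, interval 40.1 to 62.6%) in clusters of 5 peaks, whose ends are 40% of their peaks, and 29.8% (25 of 84, interval 21.0 to 40.2%) in larger ones, whose ends are on average 28.5%.

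Clustered peaks were rarely scored on the genome-wide background. MACS, the peak caller, scores a peak against the higher of a local and a genome-wide background mean, and scores on the genome-wide mean fall on a fixed series of values, the Poisson tail probabilities of whole pileups of fragments. In the whole list 1137 scores, or 22.0%, fell on that series to 2 decimals, at a mean of 49.75 fragments, and on the same parts of the arms 10.1% did. Among the 900 clustered peaks 53 did (5.89%, 95% Wilson interval 4.53 to 7.62%), against 169 of 1830 in chains of 2 to 4 (9.23%, 7.99 to 10.6%) and 130 of 697 isolated peaks (18.7%, 15.9 to 21.7%). The low share was not particular to clusters: it was 6.34% in chains of 4 (26 of 410, 4.36 to 9.13%), against 6.04% in clusters of 5 and 8.22% in clusters of 8 or more. At 181 other means between 40 and 49, which stand for coincidence, 2.69% of clustered peaks matched on average and 4.22% at most, so part of the 5.89% may be coincidence. Clustered peaks less than 1 kb from another had a share of 5.57% (42 of 754) and those farther away 7.53% (11 of 146). The other clustered peaks are taken to have been scored against a higher local mean, which was not read from any library here, and its part in the lower scores of clustered peaks was not tested.

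For the 53 peaks on the genome-wide mean the score gives the pileup. It had a median of 107 fragments (quartiles 98 and 119, range 90 to 148), or 2.15-fold the background mean, against 110 fragments and 2.21-fold for the 130 isolated peaks. The pileup may be off by 1 fragment, and coincidental matches are included. At the other means such matches averaged 2.69% of clustered and 2.66% of isolated peaks, beside shares of 5.89% and 18.7%. They can thus be a larger part of the 53 than of the 130, so the medians are not of like sets. With wide peaks counted too, peaks on the genome-wide mean were absent from 122 of the 156 clusters (78.2%). Whether they gathered in fewer clusters than random placement would give was not tested. The most in a cluster was 4, in 3R:14738475-14754974 and 2L:18310691-18321289. In these the strongest peak was wide and scored 94.62 and 86.33. The wide peak with 86.33 was itself among the 4 of its cluster.

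**Figure D4:**
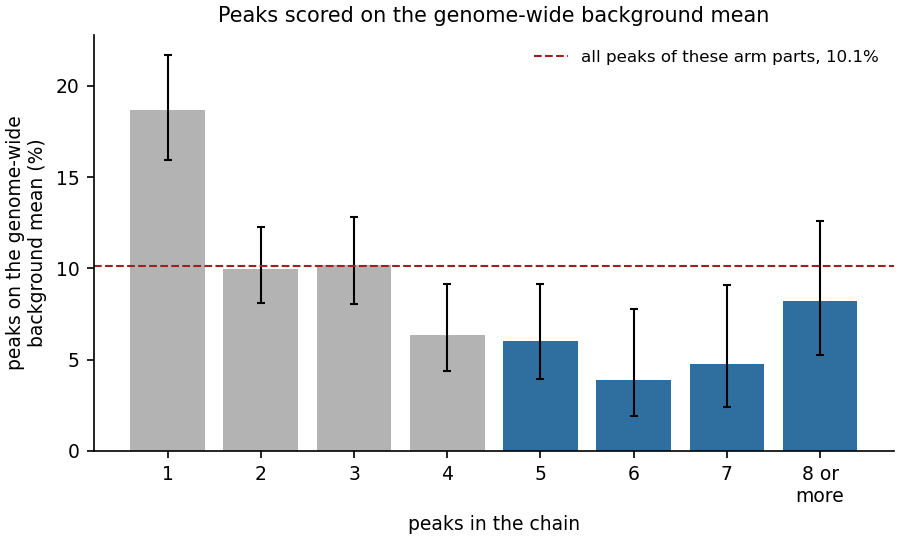
Share of peaks under 1500 bp (%) whose score fell on the genome-wide background mean, by the number of peaks in their chain, from isolated peaks (1) to 8 or more; blue bars are the clusters, error bars are 95% Wilson intervals for counting only, and the dashed line marks 10.1% for all peaks of the same parts of the arms. The share is 18.7% for isolated peaks and between 3.87 and 8.22% in the 4 classes of clusters.

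All 4 arms carried clusters at a like density. Arm 3R had 48 clusters with 283 clustered peaks, 3L 40 with 221, and 2L and 2R 34 with 198 each. Per Mb between the first and last peak kept, arm 3R had 1.87 clusters, 3L had 1.83, 2R had 1.78 and 2L had 1.71. The share of an arm's peaks that were clustered ran from 21.5% on 2R to 25.4% on 3R, and the median score from 12.24 on 2L to 13.25 on 2R.

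Along the arms the number of clusters per Mb varied, and whether by more than random placement would give was not tested. Of 88 bins of 1 Mb, 17 held no cluster, among them 2R 21 to 22 Mb with only 2 peaks in all. The median bin held 2 clusters, and the fullest held 5, at 2L 10 to 11 Mb and at 2R 19 to 20 Mb. In the bin on 2L, 36 of 85 peaks stood in clusters. Across bins the number of clusters had a Spearman rho of 0.604 with the number of all peaks, which includes those of the clusters. The longest stretch without a cluster was the start of 3L, 2.56 Mb between its first peak at 22916 and its first cluster at 2585800. The longest between clusters were all on 2R, 2.42 Mb between 2R:12908267 and 15330058, 2.33 Mb between 10509720 and 12838851, and 2.24 Mb between 15344539 and 17589238. The cluster of 9 peaks at 2R:15330058-15344539 stood alone between the 2.42 Mb and the 2.24 Mb stretch.

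Some clusters were parts of larger groups. The nearest other cluster lay at a median distance of 145 kb (quartiles 37.9 and 367 kb), but 25 of the 156 (16.0%) had another within 20 kb and 16 within 10 kb. The closest pair was 3R:25864580-25872859 and 3R:25878150-25884808, 5.29 kb apart, with 5 and 7 peaks. On 2L, 6944935 to 6951131 and 6956460 to 6971719 stood 5.33 kb apart and held 5 and 8 peaks, with strongest peaks of 33.61 and 39.29. The 10-peak cluster 3R:8248442-8260121 had another of 5 peaks 8.31 kb before it. For 64 clusters (41.0%) the nearest peak outside lay within 10 kb.

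The limits of the rule fell within continuous distributions. The longest gaps that still joined peaks were 4995 bp, before the wide peak 3L:20777220-20779258 with a score of 48.67, 4989 bp, before 3R:4065201-4065688 with 19.37, and 4987 bp, before 2L:18695047-18695925 with 19.02. The shortest that did not were 5018 bp, before 2L:6722979-6723378 with 18.43, and 5023 bp, before 2L:2197200-2197978 with 9.18. The widest clustered peak was 2L:2878251-2879744, at 1494 bp with a score of 27.39, and the narrowest left out as wide was 2L:4976235-4977749, at 1515 bp with 24.43. The 11 clustered peaks of 1400 bp or more had a median score of 24.77, and the 15 wide peaks under 1600 bp had 25.46. The 72 clusters of 5 peaks had a median span of 7.05 kb and a median strongest score of 25.96, against 5.30 kb and 22.93 for the 110 chains of 4 peaks just below the limit. The peaks under 1500 bp had median scores of 12.53 in the clusters of 5 and 12.75 in the chains of 4.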

How the data were processed

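Broad ChIP-seq was made from 2 ChIP and 2 Input libraries, which the authors reduced to 1 list of 5171 peaks. The submitters' processing notes name CASAVA (1.7.0.2 and 1.7.0.3), BWA, MACS2 and build BDGP5, and positions follow FlyBase release 5, per the file headers. Calling settings, pooling and the handling of multiply mapped reads: not given in the sources used here. The deposited score has no name in the file. It was read as the authors' −log10 p because many scores equal Poisson tail probabilities at 1 mean, which a search between 10 and 120 (step 0.01, then 0.001) located; a match was exact at 2 decimals. Depth per library is unknown.

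Peaks of an arm were chained in order of position before the centromere-proximal peaks were removed. Joining used gaps under 1 kb, with the highest score kept. The clusters, limits and comparisons were chosen with earlier results of these data known, and no test was made. Regions named are the clusters of 10 or more peaks, the 10 highest clustered peaks, the 3 most compact and 3 longest clusters, the cluster with most peaks on each arm, and peaks beside the limits; the other regions were chosen after their values were seen. Chaining and scanning were tested on simulated data. Python 3.11.15, numpy 2.4.6, scipy 1.17.1, pandas 2.3.3 and matplotlib 3.10.9 were used. Alternatives changed the gap limit, cluster size, width limit, peaks kept, joining, arm ends and arms.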

Additional observations from a re-analysis of the deposited data

How the results depend on the processing

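The number of clustered peaks (900) and clusters (156) followed the limits by construction. They were 353 and 69 with gaps of at most 2000 bp, 1546 and 240 with 10000 bp, 569 and 84 with 6 or more peaks, 104 and 22 with the top 50% of peaks by score, 3 and 1 with the top 25%, and 51 and 15 with peaks under 1000 bp apart joined; with 4 or more peaks there were 266 clusters. The median score of clustered peaks was 13.49 without a width limit, 17.72 with the top 50%, 22.45 with the top 25% and 15.86 with joining. The clustered minus the isolated median was -2.32 with the top 25% (3 peaks, interval -5.59 to 3.27) and 1.47 with joining (51 peaks, -0.67 to 5.05); both intervals include 0, so neither direction is resolved. Its interval also reached past 0 with 10000 bp (-2.38 to 0.09), 6 or more peaks (-2.07 to 0.14) and the top 50% (-3.11 to 0.48). The median gap was 1028 bp with the top 50%, 1744 bp with the top 25% and 2534 bp with joining, and the median width 620, 1098 and 845 bp. The share on the genome-wide background mean was 7.69% with the top 50%, 0.00% with the top 25% and 12.0% with no arm ends left out. The share of clusters whose strongest peak was 1500 bp or wider, 28.2%, was 36.4% with the top 50%, 0.00% with the top 25% and 53.3% with joining. The strongest peak was first or last in 53.6% of clusters with 2000 bp, 29.8% with 6 or more peaks, 100% with the top 25% and 26.7% with joining. Ends make up 40% of the peaks in clusters of 5 and less in larger ones. The causes were not tested; the top 25% leaves 1 cluster. Leaving out each arm, or the largest cluster of each arm (added after the data were seen), moved none of these values beyond the interval of the main value or by over 1.5 times. No paired analysis was possible because peaks carry 1 score for all libraries together, and no replicate could be left out.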

Other observations

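Outside the parts of the arms described, chains of 5 or more peaks were also listed. The centromere-proximal ends of the 4 arms held 17 such chains with 175 peaks, and X held 25 with 146 peaks, the largest of 8 peaks.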
